A study of Mus musculus with 6 samples.

Results

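The HMGN proteins and the BRWD chromatin readers are 7 genes of the 55487 in the count table, taken by symbol: Hmgn1, Hmgn2, Hmgn3, Hmgn5, Brwd1, Brwd3 and Phip. They were measured by RNA sequencing of mouse primitive macrophages, the first macrophages of the embryo and the precursors of microglia. The cells were made from embryonic stem cells by 12 days of culture with M-CSF, IL-3, SCF, VEGF, activin A, BMP-4 and FGF2. Ts1Cje libraries (3) came from stem cells of the Ts1Cje mouse, a Down syndrome model in which an extra piece of distal chromosome 16 is carried on chromosome 12, and wild-type libraries (3) came from stem cells of wild-type mice. All 6 cultures had the same cytokines. The study's design text asks why Ts1Cje embryos have fewer microglia. Of the 7 genes, 2 (Hmgn1 and Brwd1) lie in the segment that Ts1Cje cells carry in 3 copies, and 5 lie outside it. The labels number the replicates as lots and the design text speaks of different cells, without saying whether a lot is a line of its own or a repeat of the culture, so p-values measure only the spread between these libraries, which may be technical. In bulk RNA, fewer cells of a type and less RNA per cell cannot be told apart.

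HMGN proteins are small, abundant proteins that bind nucleosomes through a short conserved domain, compete with linker histone H1 and keep chromatin more open. BRWD proteins (Brwd1, Brwd3 and Phip) are large nuclear proteins with WD40 repeats and a pair of bromodomains, a fold that binds acetylated histone tails, and they serve as substrate receptors of CUL4 ubiquitin ligases. In human trisomy 21, HMGN1 and BRWD1 are both in extra copy, and HMGN1 dosage has been studied for its part in Down syndrome leukaemia.

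The genes of both families sit next to each other at 3 places in the genome. Hmgn1 and Brwd1 were known to lie in the triplicated segment when the genes were chosen, so their shared chromosome is no finding. Positions are those of the count table, in mm10. Brwd1 lies at chr16:95992092-96082526 with 41 exons in its longest transcript, and Hmgn1 at chr16:96120618-96127729 with 6 exons. Both are on the minus strand, and the gap of 38091 bp between them holds 0 coding genes and 2 noncoding genes. Phip (chr9:82866159-82975516) and Hmgn3 (chr9:83109948-83146685) stand in the same order and orientation on chromosome 9, 134431 bp apart, and Brwd3 (chrX:108737016-108834372) and Hmgn5 (chrX:109004534-109013404) do so on the X chromosome, 170161 bp apart. No coding gene lies in these gaps either, where the table lists 3 and 2 noncoding genes. Among a list of chosen neighbours, a gene of the Sh3bgr family lies beyond each pair (Sh3bgr, Sh3bgrl2 and Sh3bgrl). A gene of the Lca5 family does so on chromosomes 16 and 9. Get1 and Lca5l lie between Hmgn1 and Sh3bgr, and Sh3bgrl2 starts 402 kb beyond the start of Hmgn3. Genes outside that list were not examined on this side. Hmgn2, at chr4:133964738-133968650 with 3 exons, has no BRWD partner among the members.

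**Figure D1:**
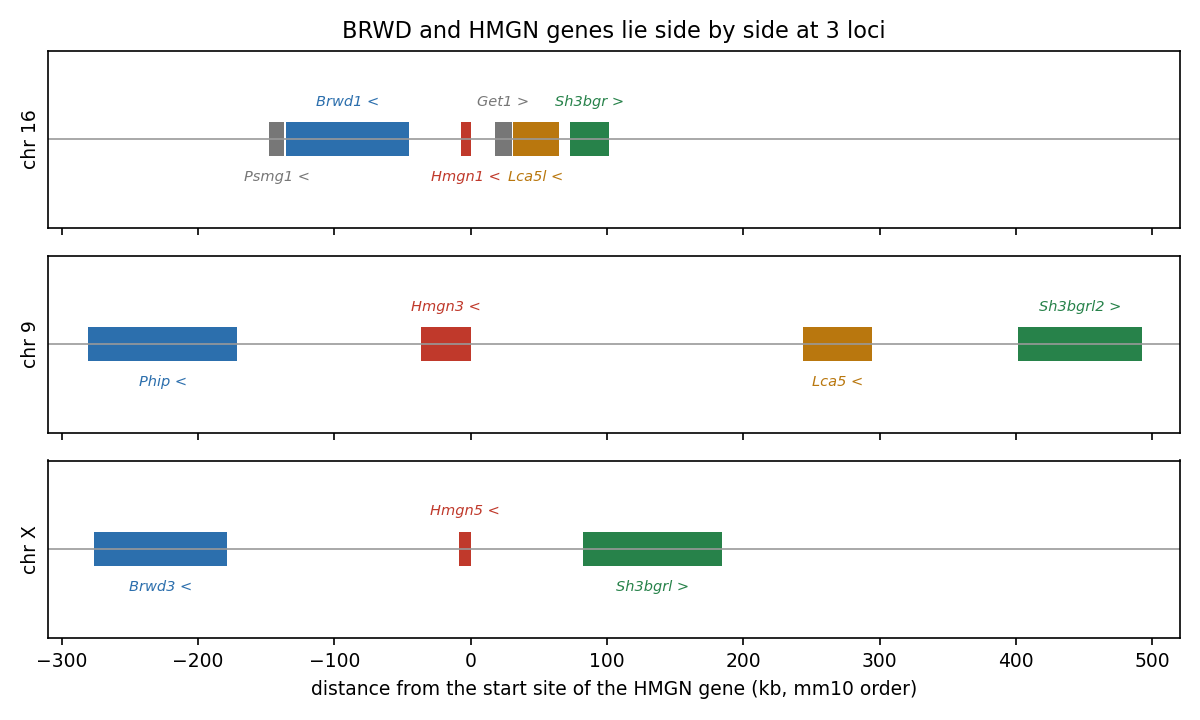
Map of the 3 loci in mm10 order, as distance in kb from the start site of the HMGN gene on each chromosome, with > and < for the plus and minus strand. At each locus the BRWD gene (blue) stands to the left of the HMGN gene (red) on the same strand. A Sh3bgr family gene (green) stands to the right. Only the members and chosen neighbours are drawn, without Ets2 and B3galt5, and other genes at these loci are left out.

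The paralogues are related in coding sequence, but long exact matches between them are few. The best-matching 48-base coding stretch of the 4 HMGN genes, found by search, is shown because it is where the family is most alike, with capitals for the 23 bases identical in all 4 genes (GENCODE M21 transcripts, coding strand).
Hmgn1: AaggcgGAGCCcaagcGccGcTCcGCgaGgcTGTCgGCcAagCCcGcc
Hmgn2: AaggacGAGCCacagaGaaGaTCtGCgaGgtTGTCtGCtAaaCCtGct
Hmgn3: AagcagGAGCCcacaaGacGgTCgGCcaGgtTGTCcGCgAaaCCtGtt
Hmgn5: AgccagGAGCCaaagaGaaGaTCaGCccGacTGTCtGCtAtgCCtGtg
The stretch spans coding bases 37 to 84 of Hmgn1. Against the Hmgn1 stretch, that of Hmgn2 differed at 15 bases, that of Hmgn3 at 16 and that of Hmgn5 at 19. The matching search over the BRWD genes gave a closer stretch, with 38 of 48 bases identical in all 3 genes, again in capitals.
Brwd1: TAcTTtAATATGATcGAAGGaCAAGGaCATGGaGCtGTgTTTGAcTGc
Brwd3: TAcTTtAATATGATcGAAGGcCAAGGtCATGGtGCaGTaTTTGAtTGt
Phip: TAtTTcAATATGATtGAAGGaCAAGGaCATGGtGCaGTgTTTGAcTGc
The longest exact run shared by transcripts of any 2 members was 23 bases, between Brwd3 and Phip, and among the HMGN genes it was 19 bases, between Hmgn2 and Hmgn5. Copies elsewhere in the genome are a separate matter for the HMGN genes. At a minimum of 95% identity over 250 bp, 4 annotated copies of Hmgn1, 12 of Hmgn2 and 1 of Hmgn5 were found, most of them processed pseudogenes, and 0 of Hmgn3 or the BRWD genes. Counts assigned to these copies came to 0.377 to 0.781% of the Hmgn1 count, 16.1 to 21.4% of the Hmgn2 count and 4.87 to 18.1% of the Hmgn5 count. The values of Hmgn2 and Hmgn5 are therefore less certain, since the handling of reads with several positions is not stated. Of the rows whose symbol starts with Hmgn or Brwd and that are not members, the pseudogene Hmgn2-ps1 had 117, 85 and 70 counts in Ts1Cje and 83, 108 and 76 counts in wild-type replicates 1 to 3, and Hmgn2l6 had 0 counts in all libraries.

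Per base of gene length, Hmgn1 had the highest level of the 7. Its deposited TPM (abundance scaled by gene length and library) averaged 201 ± 34.2 over the 6 libraries (SD, n = 6), above 94.9% of the 13821 genes tested. Hmgn2 followed at 117 ± 38.8 TPM and Hmgn5, which carries a long acidic tail, at 29.0 ± 7.93 TPM. The ranges of Hmgn1 (167 to 243 TPM) and Hmgn2 (77.2 to 179 TPM) overlapped, while Hmgn2 and Hmgn5 did not. The BRWD genes lay below the range of Hmgn5. Brwd1 averaged 7.13 ± 1.65 TPM, Phip 6.06 ± 1.70 TPM, Hmgn3 2.68 ± 1.94 TPM and Brwd3 1.62 ± 0.252 TPM (SD, n = 6 each). Brwd1 and Phip overlapped in range, as did Phip and Hmgn3, and Hmgn3 and Brwd3. Gene length in the deposited TPM equalled the union of all annotated exons, 33312 bp for Phip against a longest transcript of 10756 bp and 20280 against 9843 bp for Brwd1. The TPM of both genes, and so their order, rests on that length.

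**Figure D2:**
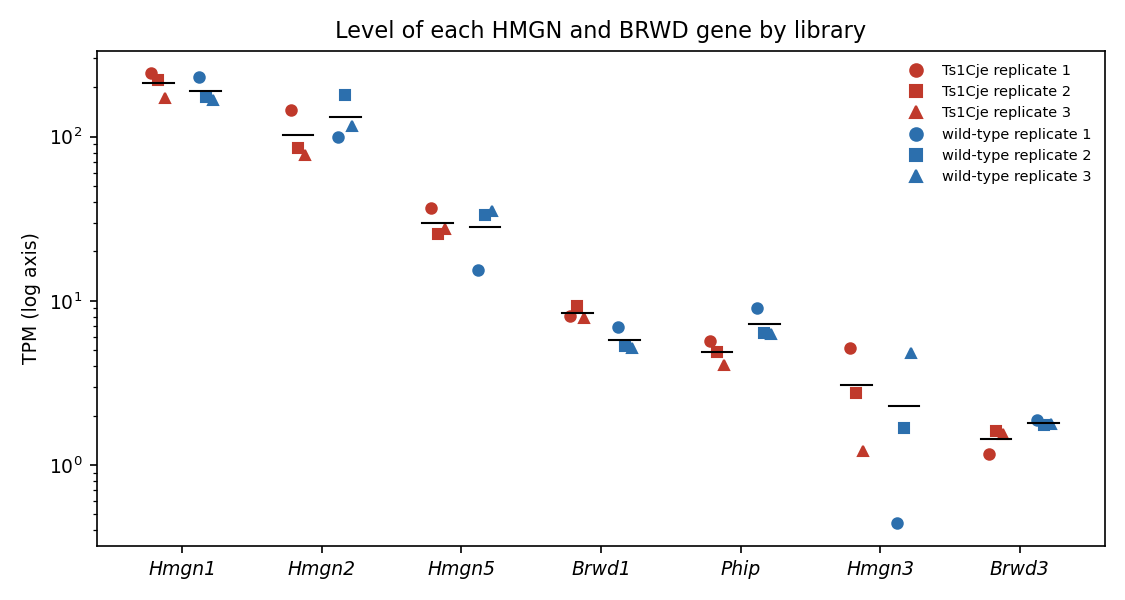
Deposited TPM on a log axis of the 7 genes in each library, with Ts1Cje libraries in red on the left and wild-type libraries in blue on the right of each pair, a symbol per replicate and a bar at the mean of 3. Hmgn1 and Hmgn2 lie above 77 TPM in every library, and without overlap Brwd1 is higher and Phip and Brwd3 are lower in Ts1Cje.

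Library depth was 26146044 to 32658148 counts in Ts1Cje and 25484294 to 26372632 counts in wild-type libraries. Summed TPM of 10 macrophage markers was 13090 to 14950 in Ts1Cje and 12990 to 16260 in wild-type libraries, and all 10 were detected. Summed markers of megakaryocytes and mast cells were 188 to 623 and 140 to 772 TPM, and those of red cells 61.6 to 92.0 and 63.3 to 114.5 TPM, in Ts1Cje and wild-type libraries. The summed level of 6 pluripotency markers did not overlap, at 1.62 to 2.45 TPM in Ts1Cje and 0 to 0.175 TPM in wild-type libraries, with 1 of them at 0 in all libraries, and their part in the results was not tested. Sums for neutrophil, endothelial, mesenchymal, epithelial and neural lists were at most 35.2 TPM. The epithelial sum was 9.14, 12.8 and 7.17 TPM in Ts1Cje and 25.9, 0 and 0.234 TPM in wild-type replicates 1 to 3. Wild-type replicate 1 stood apart. It scored 88.2 on the first principal component (37.8% of variance), where the other 5 libraries scored -38.7 to 18.7, it had 46.7 TPM of cardiomyocyte markers against 0.988 to 8.05 TPM in the others, and its cell cycle genes were the lowest. For the members, the ratio of Hmgn1 to Brwd1 and the shares within each family, a value without it is given too. Values of the neighbours, the segment, the gene lists and Pearson's r are given with it only. How far those rest on it was not tested.

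The comparison of Ts1Cje with wild-type libraries asks how the extra copy of Hmgn1 and Brwd1 shows in RNA and what the paralogues outside the segment did. At an adjusted p under 0.05 in edgeR's quasi-likelihood test over 13821 genes, 0 of the 7 members were called, where 1 gene, 0.00724% of those tested, was. At an unadjusted p under 0.05 there were 2 members, Brwd1 higher and Phip lower in Ts1Cje, where 5.79% of all tested genes passed that level, 2.99% higher and 2.8% lower. Without wild-type replicate 3 that level was passed by 2347 of 14620 tested genes, against 540 to 688 genes with any other library left out. DESeq2 called 0 members where it called 56 genes, 0.405% of those tested, and limma-voom called 0 members where it called 1 gene, 0.00724%. Ts1Cje and wild-type libraries did not overlap for 1 member that was higher (Brwd1) and 2 that were lower (Brwd3 and Phip), where 6.38% of all tested genes were higher and 5.72% lower without overlap. The median log2 fold change was 0.13 over the HMGN genes and -0.31 over the BRWD genes, against -0.01 over all tested genes. Set against a 1.5-fold rise, which 3 copies in place of 2 give in proportion, 3 members outside the segment were called lower at an adjusted p under 0.05 by edgeR (Hmgn2, Brwd3 and Phip), where 29.9% of all tested genes differed from it, and 0 of the 2 in the segment were. With single libraries left out, Brwd3 no longer passed in any of the 6 fits, at differences in log2 of -1.02 to -0.75. Hmgn2 passed only without wild-type replicate 1 (range -1.25 to -0.68), and Phip only without wild-type replicate 1 or wild-type replicate 3 (range -1.26 to -0.95).

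Among the members of the segment, Brwd1, which is required in mice for germ cell and B cell development, had higher values in Ts1Cje without passing over all genes. It had 53.4, 61.3 and 57.9 CPM (counts scaled by library size with TMM factors) in Ts1Cje replicates 1 to 3, and 48.1, 35.9 and 34.3 CPM in wild-type replicates 1 to 3. The groups did not overlap, and wild-type replicate 1 came closest to the Ts1Cje libraries. The log2 fold change was 0.54 ± 0.17 (SE), a fold of 1.46 with a 95% interval of 1.10 to 1.93 (edgeR; unadjusted p = 0.0146, adjusted p = 0.792). Its difference from a 1.5-fold rise was -0.04 in log2 (unadjusted p = 0.823, adjusted p = 0.869 by edgeR). Without wild-type replicate 1 its log2 fold change was 0.70 (adjusted p = 0.843 by edgeR). With each library left out in turn the unadjusted p of edgeR ranged from 0.00245 to 0.0555, and it was above 0.05 without Ts1Cje replicate 2 or wild-type replicate 2.

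Hmgn1, the other triplicated member and its neighbour, differed between genotypes by less than its error. It had 253, 232 and 199 CPM in Ts1Cje replicates 1 to 3, and 254, 187 and 176 CPM in wild-type replicates 1 to 3. The groups overlapped: wild-type replicate 1 was as high as the highest Ts1Cje library, while the other wild-type libraries lay below all Ts1Cje libraries. The log2 fold change was 0.15 ± 0.18 (SE), a fold of 1.11 with a 95% interval of 0.826 to 1.49 (adjusted p = 0.882 by edgeR). Against a 1.5-fold rise the difference in log2 was -0.43, with an unadjusted p of 0.0472 and an adjusted p of 0.102 by edgeR, so it did not pass. Of all tested genes 46.7% lay below a 1.5-fold rise at an unadjusted p under 0.05, and of the 56 tested genes of the segment 3.57% did, which are Hmgn1 and Runx1. Without wild-type replicate 1 the log2 fold change of Hmgn1 was 0.32 and its unadjusted p against a 1.5-fold rise was 0.142 (edgeR). The log2 fold change was 0.07 without Ts1Cje replicate 1, 0.08 without wild-type replicate 2 and 0.06 without wild-type replicate 3. With each library left out in turn the unadjusted p of edgeR against a 1.5-fold rise ranged from 0.0257 to 0.142, and it was under 0.05 only without wild-type replicate 3.

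The segment as a whole gives the setting for these values. Its 56 tested genes had a median log2 fold change of 0.62, 47 of them positive, and 55.4% were higher in Ts1Cje with no overlap. From the lowest, Hmgn1 ranked 10 and Brwd1 ranked 22 of 56. Some genes around the pair also had higher values in Ts1Cje. Psmg1, a proteasome assembly chaperone next to Brwd1, had 24.4, 25.1 and 24.0 CPM in Ts1Cje and 10.8, 20.5 and 16.01 CPM in wild-type libraries, a log2 fold change of 0.64 ± 0.25 (SE). Get1, a receptor for tail-anchored membrane proteins on the other side of Hmgn1, had 76.6, 86.3 and 83.6 CPM in Ts1Cje and 52.1, 39.0 and 70.6 CPM in wild-type libraries, a log2 fold change of 0.61 ± 0.22 (SE). Ets2, a transcription factor further off, had 0.91 ± 0.21 (SE). None of these 3 overlapped between genotypes and none passed over all genes (adjusted p = 0.792 each by edgeR). Lca5l had -0.55 ± 0.59 and B3galt5, a galactosyltransferase, 0.87 ± 0.73 (SE), with overlapping groups, and Sh3bgr, with 2 to 8 counts in Ts1Cje and 0 to 23 counts in wild-type libraries, was not tested. At the loci outside the segment Lca5, a ciliary gene, had 0.04 ± 0.48, Sh3bgrl2 0.22 ± 0.22 and Sh3bgrl -0.11 ± 0.18 (SE), also with overlapping groups.

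**Figure D3:**
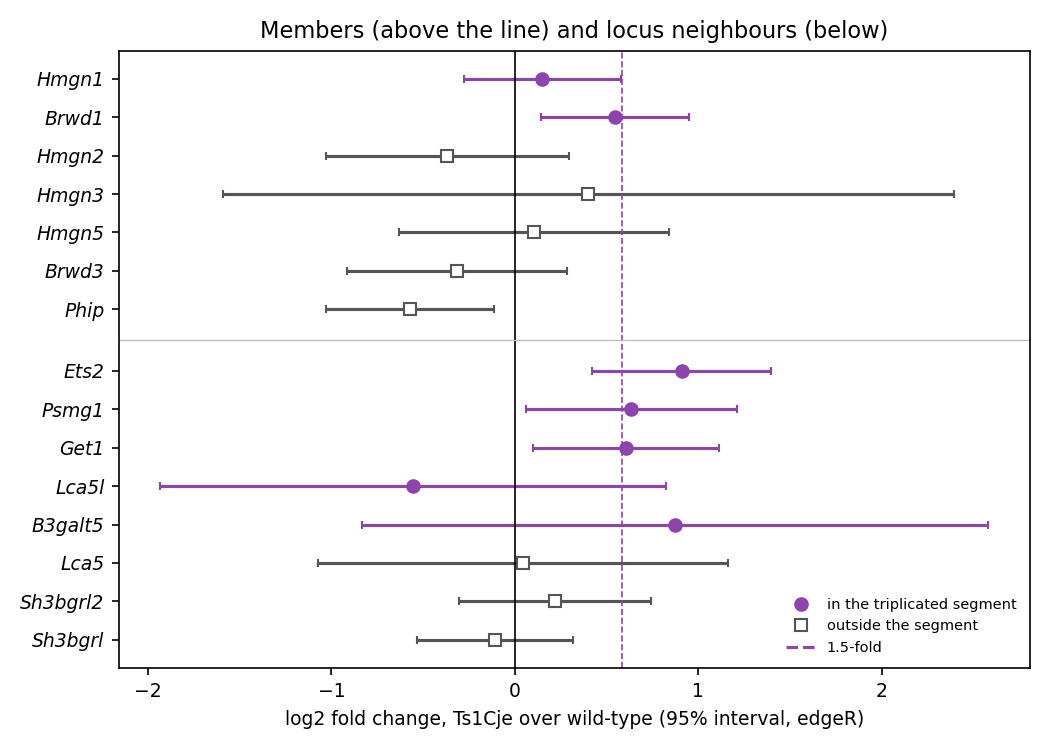
Log2 fold change, Ts1Cje over wild-type, with its 95% interval from edgeR for the 7 members (above the grey line) and the tested locus neighbours (below it), with filled circles for genes of the triplicated segment and open squares for genes outside it. Brwd1, Psmg1 and Get1 lie at 0.54 to 0.64, near the dashed line at a 1.5-fold rise, and the interval of Hmgn1 ends at 0.58.

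The ratio of the 2 triplicated genes within a library does not depend on library scaling. The Hmgn1 count was 4.75, 3.78 and 3.44 times the Brwd1 count in Ts1Cje replicates 1 to 3, and 5.28, 5.20 and 5.12 times in wild-type replicates 1 to 3. The wild-type ratios lay close together and above all Ts1Cje ratios, which were more spread. Each spread rests on 3 libraries, and the difference in spread was not tested. The log2 ratio averaged 1.98 ± 0.239 in Ts1Cje and 2.38 ± 0.0213 in wild-type libraries (SD, n = 3 each), a difference of -0.40 with an exact two-sided permutation p of 0.1, the smallest that 3 against 3 can give. Without wild-type replicate 1 the difference was -0.39.

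Phip, first described as a protein that binds insulin receptor substrates, lies outside the segment and had lower values in Ts1Cje, also without passing over all genes. It had 61.5, 52.7 and 49.0 CPM in Ts1Cje replicates 1 to 3, and 103, 71.0 and 68.2 CPM in wild-type replicates 1 to 3. The groups did not overlap, and wild-type replicate 1 was the highest of all libraries. The log2 fold change was -0.57 ± 0.20 (SE), a fold of 0.674 with a 95% interval of 0.491 to 0.926 (edgeR; unadjusted p = 0.0213, adjusted p = 0.792). Without wild-type replicate 1 it was -0.36 (adjusted p = 0.989 by edgeR). With each library left out in turn the unadjusted p of edgeR ranged from 0.013 to 0.07, and it was above 0.05 without Ts1Cje replicate 2, Ts1Cje replicate 3 or wild-type replicate 1. Brwd3, which in humans is linked to an X-linked intellectual disability, had 4.79, 6.59 and 7.06 CPM in Ts1Cje and 8.13, 7.36 and 7.44 CPM in wild-type replicates 1 to 3. Its groups did not overlap, but Ts1Cje replicate 3 and wild-type replicate 2 were close, and the log2 fold change was -0.31 ± 0.26 (SE; adjusted p = 0.831 by edgeR). A noncoding gene on the opposite strand overlaps Brwd3 exons by 48 bases and had 41 to 64 counts in Ts1Cje and 57 to 78 counts in wild-type libraries. Whether counting used strand is not stated, so reads of these genes cannot be told apart there. Without Ts1Cje replicate 1 the log2 fold change of Brwd3 was -0.16.

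The share of Brwd1 among BRWD transcripts did not overlap between the genotypes, while their sum did. Brwd1 made up 54.2, 59.0 and 58.5% of the summed TPM of Brwd1, Brwd3 and Phip in Ts1Cje replicates 1 to 3, and 38.9, 39.5 and 39.1% in wild-type replicates 1 to 3. The groups did not overlap, and the wild-type shares lay close together, a spread of 3 libraries that was not tested. The means were 57.2 ± 2.62% in Ts1Cje and 39.2 ± 0.328% in wild-type libraries (SD, n = 3 each), a difference of 18.1 percentage points with an exact two-sided permutation p of 0.1, the smallest this design allows. This separation and its p follow from the single genes, since in TPM Brwd1 was higher and Phip and Brwd3 were lower without overlap. They add no support to those values, and the same holds for the ratio of Brwd1 to Phip below. Counted per base of the longest transcript, a length chosen after the data were seen, the difference was also 18.1 points. The mean shares were then 51.15% in Ts1Cje and 33.02% in wild-type libraries. As shares of counts the means were 48.75% and 30.95%, so the level of the share rests on the length used. The Brwd1 count was 0.869, 1.16 and 1.18 times the Phip count in Ts1Cje replicates 1 to 3, and 0.467, 0.506 and 0.503 times in wild-type replicates 1 to 3. Wild-type replicate 1, which had the highest CPM of both genes among wild-type libraries, did not stand apart in these ratios, and without it the difference in share was 17.9 points. The summed TPM of the 3 genes was 15.02, 15.8 and 13.5 in Ts1Cje and 17.8, 13.45 and 13.2 in wild-type replicates 1 to 3, with overlapping groups.

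**Figure D4:**
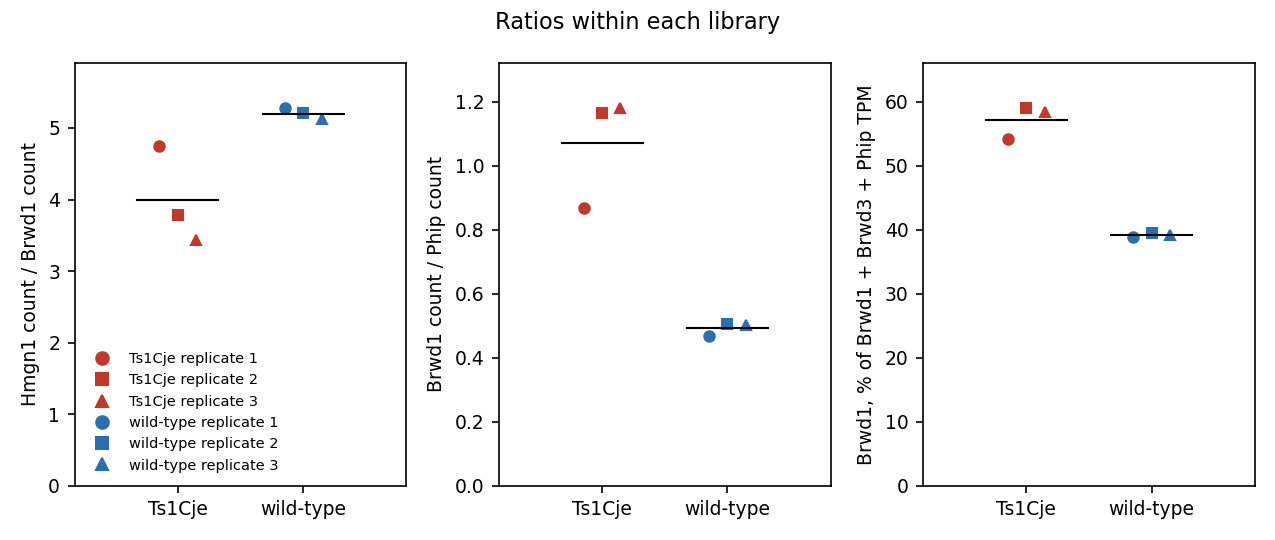
Within-library ratios, with Ts1Cje libraries in red on the left and wild-type libraries in blue on the right, a symbol per replicate and a bar at the mean of 3. Left, Hmgn1 count over Brwd1 count; middle, Brwd1 count over Phip count; right, Brwd1 as a percent of the TPM of the 3 BRWD genes, which is 54.2 to 59.0% in Ts1Cje and 38.9 to 39.5% in wild-type libraries.

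The HMGN genes outside the segment overlapped between genotypes in each case. Hmgn2, the most abundant HMGN after Hmgn1, had 143, 84.5 and 85.2 CPM in Ts1Cje replicates 1 to 3, and 105, 183 and 117 CPM in wild-type replicates 1 to 3. Ts1Cje replicate 1 lay among the wild-type libraries, and the log2 fold change was -0.37 ± 0.28 (SE; adjusted p = 0.828 by edgeR), or -0.34 with the counts of its copies added. It was -0.66 without Ts1Cje replicate 1, -0.53 without wild-type replicate 1 and -0.10 without wild-type replicate 2. Hmgn5 had 23.0, 16.1 and 19.2 CPM in Ts1Cje and 10.3, 21.5 and 22.4 CPM in wild-type replicates 1 to 3. Wild-type replicate 1 was the lowest library, and the log2 fold change of 0.10 ± 0.32 (SE; adjusted p = 0.956 by edgeR) was -0.19 without it. Hmgn3, which in mice has a role in insulin secretion, was low, with 106, 45 and 24 counts in Ts1Cje and 7, 28 and 78 counts in wild-type replicates 1 to 3. Both the highest and the lowest wild-type library were far from the middle one, and the log2 fold change of 0.40 ± 0.86 (SE; adjusted p = 0.935 by edgeR) was -0.09 without wild-type replicate 1. As a share of the summed TPM of the 4 HMGN genes, Hmgn1 had 56.6, 66.1 and 61.8% in Ts1Cje and 66.5, 44.8 and 51.5% in wild-type replicates 1 to 3, a difference of 7.22 points (exact two-sided permutation p = 0.4). Wild-type replicate 1 had the highest share of all 6 libraries and replicate 2 the lowest. Without wild-type replicate 1 the difference was 13.3 points, and without wild-type replicate 2 it was 2.50 points.

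Cell cycle genes moved with some of these values. The median of 24 G2/M genes, as log2 CPM relative to the wild-type mean, was 1.05, 0.709 and 0.197 in Ts1Cje and -1.94, 0.999 and 1.02 in wild-type replicates 1 to 3, and that of 25 G1/S genes was 1.0, 0.75 and 0.17 in Ts1Cje and -1.17, 0.19 and 0.83 in wild-type replicates 1 to 3. On the same scale Hmgn3 had 1.6, 0.72 and -0.25 in Ts1Cje and -1.58, 0.08 and 1.5 in wild-type replicates 1 to 3. Hmgn5 had 0.43, -0.09 and 0.17 in Ts1Cje and -0.73, 0.33 and 0.39 in wild-type replicates 1 to 3. Wild-type replicate 1 was thus the lowest library for both genes and both lists, and for Hmgn1, Brwd1, Brwd3 and Phip it was the highest of the wild-type libraries. The part of the cell cycle in these results was not tested.

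**Figure D5:**
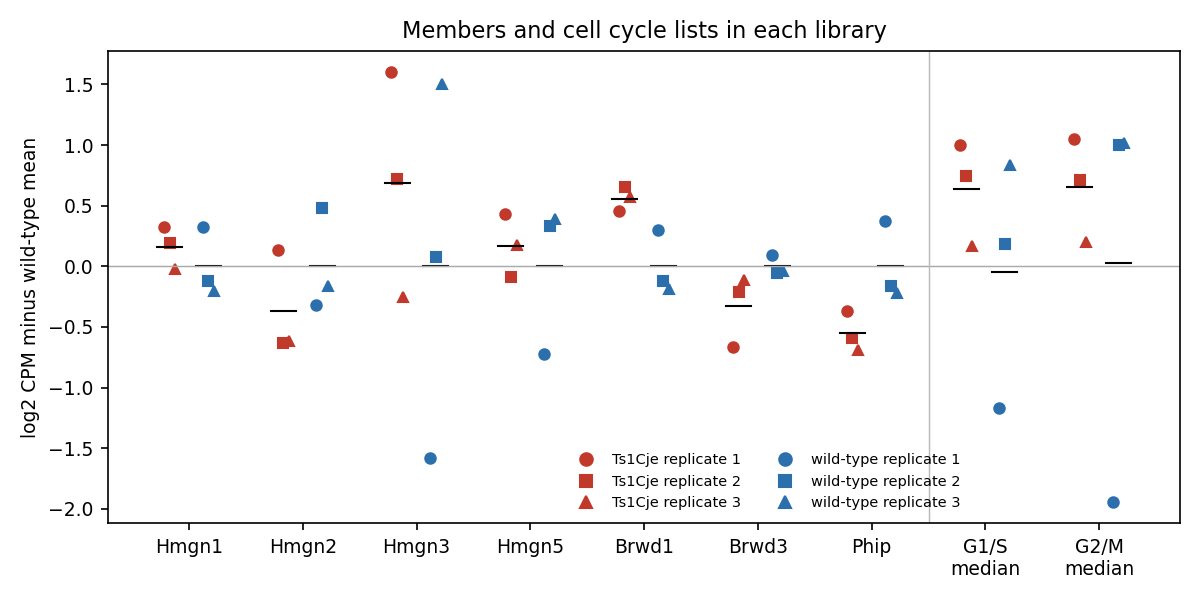
Log2 CPM minus the wild-type mean for the 7 genes, and the median over genes of the same quantity for the G1/S and G2/M lists (right of the line), with Ts1Cje libraries in red on the left and wild-type libraries in blue on the right, a symbol per replicate and a bar at the mean of 3. Wild-type replicate 1 (blue circle) is the lowest library for Hmgn3, Hmgn5 and both lists, and the Ts1Cje and wild-type symbols do not overlap for Brwd1, Brwd3 and Phip.

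Promoters are given because Hmgn1 and Brwd1 share a locus and an extra copy. Of the members, 6 had an entry in the RefSeq promoter table (GRCm38.p6, 250 bases before to 50 after the start), and the sequences of both triplicated genes follow, 5′ to 3′ on the minus strand. Capitals mark the motifs CCAAT and GGGCGG on either strand. The windows are chr16:96127676-96127975 for Hmgn1 and chr16:96082379-96082678 for Brwd1.
Hmgn1: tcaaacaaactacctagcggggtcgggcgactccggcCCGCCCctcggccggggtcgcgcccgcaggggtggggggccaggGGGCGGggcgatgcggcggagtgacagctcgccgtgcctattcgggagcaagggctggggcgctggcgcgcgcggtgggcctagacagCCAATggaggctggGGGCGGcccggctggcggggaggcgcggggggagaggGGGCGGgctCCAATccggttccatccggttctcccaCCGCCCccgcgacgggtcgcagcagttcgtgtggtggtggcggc
Brwd1: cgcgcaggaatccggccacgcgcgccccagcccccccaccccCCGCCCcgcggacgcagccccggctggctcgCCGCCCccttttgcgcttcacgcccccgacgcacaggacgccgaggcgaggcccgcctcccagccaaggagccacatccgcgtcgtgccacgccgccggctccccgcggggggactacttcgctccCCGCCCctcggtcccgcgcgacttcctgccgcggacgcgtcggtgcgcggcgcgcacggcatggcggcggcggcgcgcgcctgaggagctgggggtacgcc
Both are rich in CpG, with 37 CpG in Hmgn1 and 52 in Brwd1 against a median of 7 over 32851 promoters. This is not particular to the triplicated pair, since Phip had 41 CpG, Hmgn2 25, Hmgn5 23 and Brwd3 11. Hmgn1 holds CCAAT at 2 places and GGGCGG at 5, while Brwd1 holds GGGCGG at 3 places and CCAAT at 0. CCAAT was present in 37.4% and GGGCGG in 35.7% of all promoters of this length, counting both strands. TATAAA was in 13.6% of them and in 0 of the 6 members. Hmgn2 and Hmgn5 also hold CCAAT, at 1 and 2 places, and Brwd3 and Phip hold it at 0. GGGCGG is at 3 places in Phip, 2 in Hmgn2, 2 in Brwd3 and 0 in Hmgn5. A search for the longest run shared by the promoters of Hmgn1 and Hmgn2, each read in the direction of its gene, gave AATCCGGTTC. It starts at base 232 of the Hmgn1 window and base 272 of the Hmgn2 window. On either strand it occurs in 4 of the 32851 promoters, those of Hmgn1, Hmgn2, Crmp1 and Rrp8. Hmgn1 and Hmgn2 hold it because it was taken from them. How long a run other pairs of promoters share was not computed. These matches describe letters only.

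Genes that work with or against the members gave no call. Linker histones, which HMGN proteins displace, had 3 tested genes of 7, with log2 fold changes of -0.01 for H1f2, -0.67 for H1f3 and a lower value for H1f0. H1f0, the polyadenylated linker histone of resting and differentiated cells, had 45.6, 59.0 and 67.6 CPM in Ts1Cje and 120, 294 and 109 CPM in wild-type replicates 1 to 3. The groups did not overlap and wild-type replicate 2 was the highest, with a log2 fold change of -1.605 ± 0.39 (SE; unadjusted p = 0.00382, adjusted p = 0.792 by edgeR). Of the other HMG box and AT-hook genes all 5 were tested, 2 positive and 3 negative, with Hmgb2, a DNA-bending protein, at -0.60 ± 0.29 and Hmgb1 at -0.27 ± 0.17 (SE), and 0 had an unadjusted p under 0.05. Of the 5 CUL4 ligase subunits, 4 had positive values (median 0.06), among them the scaffold Cul4a at 0.25 ± 0.12 and Dda1 at 0.20 ± 0.15 (SE).

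Among 20 tested bromodomain genes 7 had positive and 13 negative values around a median of -0.09. At an unadjusted p under 0.05 by edgeR, 1 was higher and 2 were lower. Of all tested genes 2.99% were higher and 2.8% lower at that level. Brd7, a subunit of a SWI/SNF complex, had 0.39 ± 0.12, Atad2b, an ATPase with a bromodomain, -0.60 ± 0.24, and Brd1, a scaffold of histone acetyltransferases, -0.46 ± 0.18 (SE; adjusted p = 0.792 each by edgeR). SWI/SNF genes had 4 positive and 10 negative values, with Smarcd1, a subunit, at -0.44 ± 0.18 (SE; adjusted p = 0.792 by edgeR) the only one at an unadjusted p under 0.05. The 9 enzymes and cofactors of histone H3 lysine 27 marks had 2 positive and 7 negative values (median -0.12), and 0 had an unadjusted p under 0.05 by edgeR, with Jarid2 at -0.33 ± 0.22 and the acetyltransferase Ep300 at -0.23 ± 0.19 (SE). Of 10 genes linked to the members in other tissues 4 were tested, among them Irs2, an adaptor of insulin signalling, at 0.28 ± 0.29 (SE). The neural genes Olig1 and Olig2, which lie in the segment, had 0 counts in all 6 libraries. Over these 7 lists 0 genes passed an adjusted p of 0.05 by edgeR.

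Genes whose log2 CPM followed each member most closely over the 6 libraries were sought among the tested genes with a mean log2 CPM above 5 (5087 or 5088 genes for each member). The points share the 6 libraries, wild-type replicate 1 among them, and the values of Pearson's r are a description. Brwd1 was followed most closely by Son, a splicing cofactor that itself lies in the triplicated segment (r = 0.979), and by Gnl3 (r = 0.965). Hmgn1 was followed by Hsdl2 (r = 0.973) and Zfp715 (r = 0.955), Hmgn2 by Klf13 (r = 0.988) and Rnf4 (r = 0.974), and Phip by Tom1l2 (r = 0.988) and Dnajc8 (r = 0.986). Hmgn3 was followed by Rad21, a cohesin subunit (r = 0.996), and Tubb5, a tubulin (r = 0.993). Hmgn5 was followed by Erlin1 (r = 0.993) and Cln6 (r = 0.992), and Brwd3 by Wdr45b (r = 0.971) and Man1a2 (r = 0.959). Between the members themselves r was 0.67 for Hmgn1 with Brwd1, -0.46 for Brwd1 with Phip and 0.82 for Hmgn3 with Hmgn5. All values of r pool both genotypes, so a difference between genotypes enters them. Log2 CPM minus the wild-type mean was 0.30, -0.12 and -0.18 for Brwd1 in wild-type replicates 1 to 3. For Phip it was 0.38, -0.16 and -0.22, in the same order. In Ts1Cje replicates 1 to 3 it was 0.45, 0.65 and 0.57 for Brwd1 and -0.37, -0.59 and -0.69 for Phip.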

How the data were processed

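The authors deposited raw counts per gene and TPM values, with 1 column per library. Tools named in the submitters' processing notes are FastQC 0.11.7, Trimmomatic 0.38, HISAT2 2.1.0 and featureCounts 1.6.3, with build mm10, and the labels' protocols name a SMART-seq HT Plus kit. Strand and multi-mapping settings are not given in the sources used here. Libraries had 25484294 to 32658148 counts, and replicates of a group differed by far more than sampling noise. The members and gene lists were chosen with earlier results of these data known. Deposited counts were tested with edgeR 4.0.16 in R 4.3.3 (filterByExpr with a count minimum of 10, TMM factors, quasi-likelihood test with genotype as the only term, Benjamini-Hochberg over 13821 genes). The test against a 1.5-fold rise adds the log of 1.5 to the offsets of the Ts1Cje libraries; nearly all genes lie outside the segment, so most of them should lie below it, and 29.9% of genes passed. SE is the log2 fold change over the root of F. Ratios within a library were compared with exact permutation tests in scipy 1.17.1. The segment is the genes of chromosome 16 from after Sod1 to Zbtb21, 184 in the table. Copies were found by BLAST among GENCODE M21 transcripts. Named are the members, the tested locus neighbours, up to 4 genes of each functional list at an unadjusted p under 0.05 or else the 2 of smallest p, and the 2 genes most like each member; lists of cell markers and cell cycle genes are given as sums or medians alone. A gene that this rule names is not reported here. H1f2 and H1f3 are named outside this rule, and Olig1, Olig2 and Runx1 were named after their values were seen. Tried as alternatives were upper-quartile and RLE factors, TMM without chromosome 16, no filter, a count minimum of 50, DESeq2 1.42.0, limma-voom and limma on log2 TPM (limma 3.58.1; pseudocounts of 1 and 0.1), the replicate block and each library left out; adding the copies' counts and scaling by the longest transcript were chosen after seeing the data.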

Additional observations from a re-analysis of the deposited data

How the results depend on the processing

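Over the alternatives, each library left out among them, 0 members passed, and Brwd1 and Hmgn1 kept a positive and Hmgn2, Brwd3 and Phip a negative log2 fold change. The log2 fold change of Hmgn3 ranged from -0.19 to 1.49 and that of Hmgn5 from -0.19 to 0.29 with libraries left out, both negative without Ts1Cje replicate 1 and without wild-type replicate 1. Genes called over all genes were 3 with no filter, 56 with DESeq2, 1 to 6 with libraries left out (6 without wild-type replicate 3, where 2347 genes had an unadjusted p under 0.05 against 540 to 688 in the other 5 such fits) and 0 with the replicate block (634 at an unadjusted p under 0.05). Deviations of same-numbered libraries from their group means had r of -0.18, -0.05 and -0.06, against -0.11 to 0.17 for libraries of different numbers. The deviations within a group sum to 0, so these values are tied together. They cannot show whether the lots were paired. Against a 1.5-fold rise, the block gave differences in log2 of 0.11 for Hmgn3, and of -0.96 for Hmgn2, -0.92 for Brwd3 and -1.13 for Phip, which no longer passed; with no filter Brwd3 had -0.89 and did not pass. With libraries left out, these differences were -0.53 to -0.26 for Hmgn1 (-0.26 without wild-type replicate 1), -0.13 to 0.12 for Brwd1, -0.77 to 0.91 for Hmgn3, -1.25 to -0.68 for Hmgn2, -0.77 to -0.29 for Hmgn5 (past the threshold without wild-type replicate 1), -1.02 to -0.75 for Brwd3 and -1.26 to -0.95 for Phip. The cause of these changes was not tested. The ratio of Hmgn1 to Brwd1 differed by -0.53 to -0.30 in log2, the Brwd1 share by 17.2 to 19.6 points and the Hmgn1 share by 2.50 to 13.3 points with libraries left out, with designs too small for a p under 0.05. Low counts limit Hmgn3.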
